A study of Oryza sativa with 16 samples.

Results

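Gene expression in rice panicles was set against gene expression in rice roots, 2 tissues of the cultivar Nipponbare that had not been hybridized on the same array. Each of them had been hybridized in 2 colors together with Nipponbare shoot, so the shoot served as the common partner. For each probe, array set and replicate, the log2 ratio of root over shoot was subtracted from the log2 ratio of panicle over shoot, and this value is called the difference here, positive where panicle was higher. The difference itself came from 8 of the 16 arrays of the series, 4 with panicle and 4 with root, which fall into 2 array sets that carry different probes and 2 replicates of each tissue. It covered all 83040 different probes other than controls. The other arrays carried Nipponbare callus, cultured for 4 weeks, or seedling shoots of the indica cultivar IR64, each beside Nipponbare shoot. The callus grew on medium with the auxin dichlorophenoxyacetic acid, according to the methods of the study. The IR64 shoots were 10 days old according to the labels and older according to the methods of the study. These arrays shared in the estimate of the spread behind the calls, and some of their levels are given. Panicles were at the late-boot stage and came from plants in field soil, whereas roots came from seedlings grown for 10 days in hydroponic culture in a growth chamber. Shoots came from greenhouse seedlings in soil, 10 days old according to the labels and older according to the methods of the study. RNA of several plants was pooled according to the methods of the study. Apart from the callus medium, no plant material carried a mutation or received a treatment. Tissue, age and growth conditions changed together between panicle and root and cannot be told apart. Panicle and root RNA carried Cy3 on the arrays of replicate 1 and Cy5 on those of replicate 2, the shoot carried the other dye, and the labels name 1 shoot extract for replicate 1 and another for replicate 2. Panicle and root RNA was extracted with the RNeasy Midi Kit and shoot RNA with Trizol. Nothing in the labels says that the replicates came from separate harvests, so the p-values measure only the spread between these samples, which may be technical.

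The rice panicle is the branched flower head of the plant. At the boot stage it is still enclosed in the sheath of the flag leaf, while its florets form anthers with pollen and ovaries with ovules. The root of a seedling takes up water and minerals, carries no flowers and performs no photosynthesis, so many genes are known to be used in only 1 of these organs. In a comparison through a common partner the partner cancels out only as far as it gives the same signal beside both tissues, and that was examined below as a measurement of its own. The files do not pair the probe identifiers with gene names, so the probes are called by their identifiers, no function is given to them, and the tissue labels were not checked against marker genes. Identifiers that begin with R followed by 2 digits give the chromosome of the locus, and the letter F or R after the number gives the strand.

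On the 8 arrays, between 85.8% and 91.2% of the 42034 probes other than controls were well above background in the tissue channel, and between 80.5% and 87.4% in the shoot channel. Between 23 and 298 probes of an array were saturated in the tissue channel. The panicle array of set 1, replicate 1, had 909 outlier spots, more than the 13 to 484 of the other arrays, and such spots took no part in the fit. The panicle arrays were scanned on another day than the root arrays, so scan day and tissue cannot be told apart. Levels given below are processed signals of 1 channel, scaled to a channel median of 1000, and a level of 1 probe is not comparable with that of another probe.

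More than 1 in 10 probes differed between panicle and root. With limma and Benjamini-Hochberg adjustment at 0.05, 5387 of 82956 probes tested were higher in panicle and 5004 were lower, which is 12.5% of all probes, 6.49% higher and 6.03% lower. A further 84 probes had no value in the fit. At an unadjusted p under 0.05, 20208 probes passed. The call rests on the fit over the arrays of panicle, root, callus and IR64, and it gave fewer calls when a replicate of panicle or root was left out. Without panicle replicate 1 there were 3368 higher and 2835 lower probes, without panicle replicate 2 3581 and 2997, without root replicate 1 2682 and 2626, and without root replicate 2 2643 and 2174. With replicate 1 or replicate 2 of both tissues left out, so that the spread came from callus and IR64 alone, 272 and 345 probes were called higher and 256 and 335 lower. Among the called probes, 4810 were at least 2-fold higher in panicle and 4288 at least 2-fold lower, that is 5.8% and 5.17% of the probes tested. The extremes were nearly balanced, with 810 called probes at least 8-fold higher in panicle and 803 at least 8-fold lower, and with 92 at least 32-fold higher and 102 at least 32-fold lower. The median difference over all probes was -0.04, the median standard error was 0.29, and the smallest difference that was called was 0.59 on the log2 scale.

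The replicates, which had opposite dyes, were compared in this difference. Across the probes of array set 1 the difference in replicate 1 correlated with that in replicate 2 with r = 0.692 over 40938 probes, and in array set 2 with r = 0.811 over 41107 probes. When probes near background on any of the 4 arrays of a set were left out, r was 0.798 in set 1 and 0.921 in set 2, and the SD between replicates was 0.44 in set 1 and 0.26 in set 2. Probes of 1 sample are not independent replicates, so no p is given. Of all probes tested, 67.8% had the same sign in both replicates. The 1028 probes for single full-length cDNA clones lay on both array sets, and their difference correlated between the sets with r = 0.921 in replicate 1 and r = 0.937 in replicate 2.

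**Figure D1:**
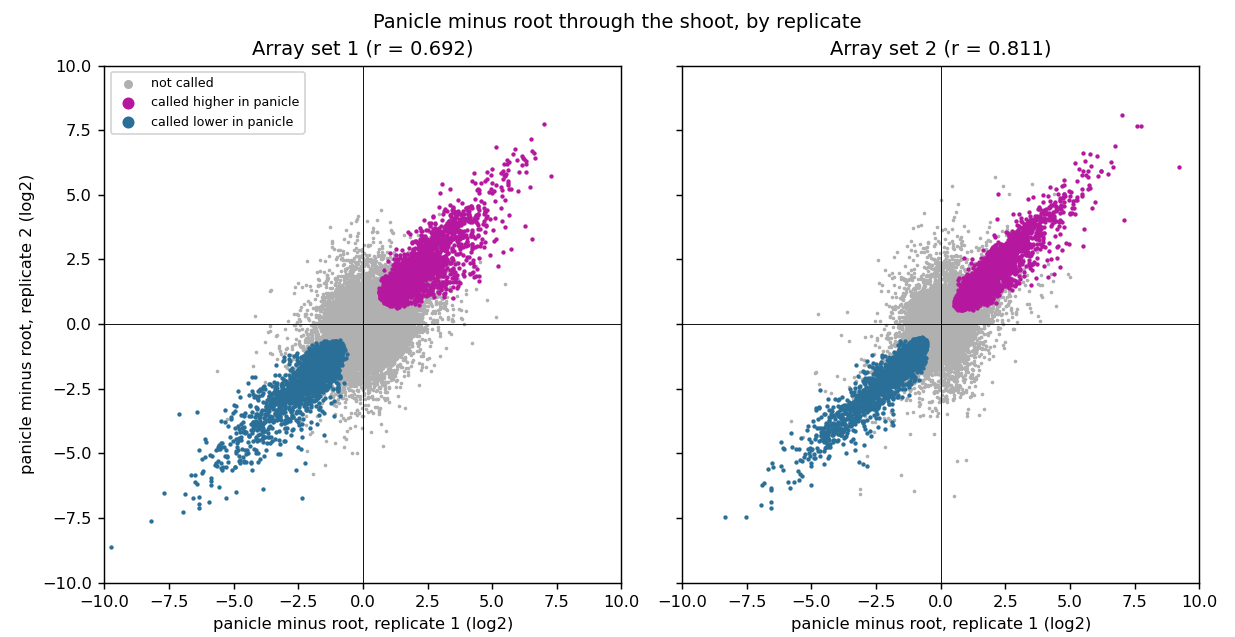
Difference of panicle minus root (log2) in replicate 1 (horizontal axis) and replicate 2 (vertical axis), 1 point per probe, for array set 1 and array set 2, with probes on both sets at their mean. Pink points were called higher in panicle, blue points lower in panicle and gray points were not called, and the points of set 2 (r = 0.811) lie closer to the diagonal than those of set 1 (r = 0.692).

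The 10 largest rises in panicle over root, from 79.0-fold to 198-fold as fitted through the shoot, are given first, and in each of them both panicle levels were far above both root levels. The probes were chosen as those with the largest called difference of the same sign in both replicates and with signals well above background in both channels of all arrays, 1 probe per locus. The gap between panicle and root levels, here and in the falls below, thus largely follows from the choice. The largest was R03-00242F_C on chromosome 3, with levels of 304410 and 242748 in panicle and of 952 and 1131 in root, and a difference of 7.63 ± 0.34 (SE, n = 2 each). Its shoot levels lay between, from 18942 to 30825, and 1 of its panicle spots was saturated. This was not so for the whole locus, since the other probe of the locus, R03-00242F_S1, which is specific to a variant, had levels of 7964 and 7766 in panicle and of 5191 and 3764 in root and was not called, with a difference of 0.52 ± 0.31.

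The second, R04-00264F_C on chromosome 4, had levels of 62233 and 86847 in panicle and of 202 and 270 in root, with a difference of 7.37 ± 0.29. R12-00032F_C on chromosome 12 had 126765 and 173874 in panicle and 608 and 1237 in root, with a difference of 6.83 ± 0.35. R02-01054F_C on chromosome 2 had 444992 and 383784 in panicle, the second of them saturated, and 563 and 524 in root. Its difference was 6.55 ± 0.36, with shoot levels of 18122 and 26594 beside panicle and of 2398 and 3174 beside root. These 3 probes differed in the level of callus, a tissue measured on other arrays of the series. Callus levels were 390 and 468 for R04-00264F_C and 2112 and 2845 for R12-00032F_C, both far below panicle, and 52904 and 68641 for R02-01054F_C, which lay between panicle and root.

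In 9640.m00136_END, designed from a predicted model, the difference of 6.80 ± 0.20 came with a shoot near the panicle level. Its levels were 137127 and 107634 in panicle and 902 and 964 in root, and from 76733 to 117077 in shoot. Its log2 ratio over shoot was 0.38 for panicle (adjusted p = 0.0754) and -6.43 for root (adjusted p = 5.77e-06). By contrast, R07-00534R_C on chromosome 7 had 80654 and 56336 in panicle, 382 and 269 in root and from 890 to 2696 in shoot, so its shoot was closer to root than to panicle. Panicle and root against shoot use the same shoot hybridization partner, and their ratios are given side by side only.

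A group of 3 of the 10 behaved nearly alike on every array. The models 9635.m04941_END and 9635.m04943_END and the 3'-end unit R07-E3TU-01122R had panicle levels of 193760 and 239640, of 143186 and 180000, and of 206897 and 255856, and root levels of 1104 and 1768, of 842 and 1169, and of 1143 and 1833. Their differences were 6.35 ± 0.47, 6.31 ± 0.35 and 6.34 ± 0.48. Their callus levels were also high, from 53115 to 79320, so panicle and callus stood far above root and shoot. Whether the 3 sequences overlap in the genome was not examined, since no coordinates are given here. The last of the 10, E5_11938, belongs to the locus R01-CHRv2-00525R on chromosome 1, and had 34319 and 44685 in panicle and 168 and 293 in root. Of the 4 probes of that locus 3 were called higher in panicle. E5_12725 and E5_11938 had differences of 5.72 and 6.30, R01-00525R_C was not well above background in root and was at least 23.4-fold higher in panicle on normalized channel values, and the last, E5_00785, was not called, with a difference of 0.51.

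Of the 10 largest falls in panicle below root, 9 ran from 89.9-fold to 181-fold as fitted through the shoot and the largest has only a bound, and both panicle levels lay far below both root levels in each of the 10 probes. The 3'-end unit R02-E3TU-00600R on chromosome 2 led them, with levels of 1839 and 968 in panicle and of 677112 and 281506 in root. It was saturated on both root arrays, so panicle was at least 269.6-fold lower on normalized channel values, where the bound sets the measured root mean over the panicle mean. Its difference through the shoot was -7.91 ± 0.45 (adjusted p = 0.000352 in limma). R03-00735F_C on chromosome 3 followed, with 302 and 264 in panicle and 50068 and 60320 in root, a difference of -7.50 ± 0.21. R05-00042F_C on chromosome 5 had 1406 and 1679 in panicle and 216621 and 279869 in root, a difference of -7.12 ± 0.22, with 1 root spot saturated.

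In these 3 probes the shoot was between panicle and root. The opposite extreme was R12-00299R_C on chromosome 12, with 220 and 243 in panicle, 21117 and 30115 in root and from 9654 to 23342 in shoot. Its callus levels were 15628 and 20582, and its levels in shoots of the indica cultivar IR64 were 27808 and 36423, so panicle was the only sample with a low level. R04-E3TU-00125F on chromosome 4 had 780 and 556 in panicle, 102177 and 117297 in root and from 931 to 2738 in shoot, so root alone was high. A pair of 3'-end units with neighboring numbers on chromosome 11 both fell. R11-E3TU-00408R had 451 and 310 in panicle and 45850 and 53924 in root, and R11-E3TU-00409R had 3855 and 2122 in panicle and 261224 and 238372 in root, with differences of -6.97 ± 0.22 and -6.72 ± 0.16, and 1 root spot of the second was saturated. The remaining 3 were 9630.m01948_END (-6.65 ± 0.29), R03-E3TU-01104F (-6.49 ± 0.32) and E5_10169 (-6.84 ± 0.20). The adjusted p of the 20 probes lay between 0.000227 and 0.00169.

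**Figure D2:**
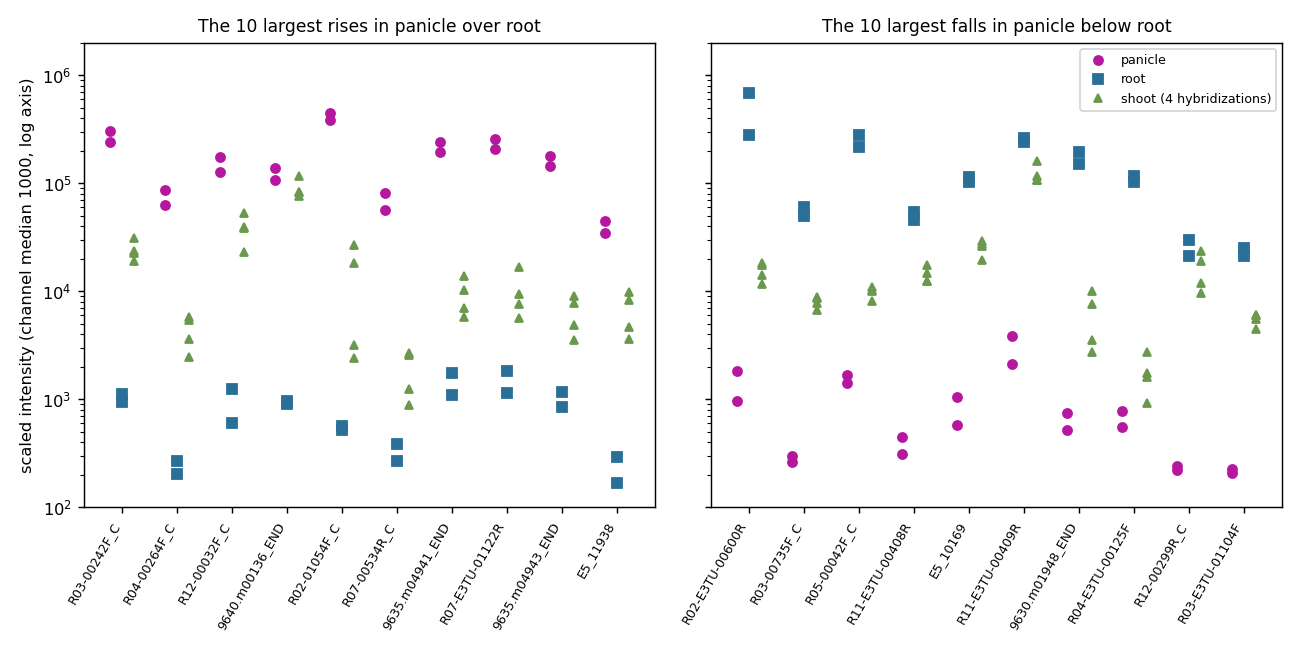
Scaled intensity (log axis, channel median 1000) of the probes with the largest differences of panicle against root, 10 rises and 10 falls. Circles are the 2 panicle replicates, squares the 2 root replicates and triangles the 4 shoot hybridizations on the same arrays. The probes were chosen by the size of their difference, so the gap between panicle and root largely follows from the choice. The shoot lies between them in most.

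E5_10169 belongs to a stretch of 3 neighboring loci on chromosome 10, R10-CHRv2-00436R to R10-CHRv2-00438R, in which nearly every probe was much lower in panicle. Of the 9 probes of R10-CHRv2-00437R all 9 were called lower in panicle, with differences from -6.84 to -4.39, 1 of them (E5_11797) without panicle replicate 1, an outlier spot. In 00436R both probes were called lower, and its common probe R10-00436R_C had levels of 920 and 2397 in panicle and of 270748 and 232558 in root. In 00438R 8 of 9 were called lower. The exception, E5_08317, had levels of 39.1 and 288 in panicle and of 41281 and 47791 in root. Its difference of -2.24 ± 0.79 through the shoot did not pass (adjusted p = 0.135). Its shoot levels were 64.3 and 86.5 beside panicle and 5021 and 9102 beside root. For R10-00436R_C they were 2301 and 5393 beside panicle and 14206 and 13464 beside root. For E5_10169 they were closer, 26049 and 19569 beside panicle and 27298 and 28896 beside root. Probes of 1 locus share its transcripts, so they are repeated measurements of the locus and not independent replicates. Whether RNA of 1 of these loci also binds the probes of another was not tested.

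The share of called probes followed the kind of sequence from which a probe was designed. Probes on FL-cDNA loci, which are clusters of full-length cDNAs on the genome, were higher in panicle in 9.91% and lower in 8.31% of 37399 probes tested. The files explain neither the name E5, given to some of these probes, nor the name ENDS, given to a class of predicted models. Probes of 3'-end units came next, with 9.21% higher and 8.68% lower of 8470. The ENDS models had 3.34% higher and 4.22% lower of 14324, and the predicted CDS models had 1.71% higher and 2.32% lower of 21737. The kinds also differed in brightness. The median level of the FL-cDNA locus probes was 2474 in panicle and 2293 in root, and that of the CDS models was 318 in panicle and 328 in root. Among all probes, 0.134% were called higher where the brighter of the 2 tissues was under 100, and 14.9% where it was 30000 or more, so the part of brightness in the differences between the kinds was not tested.

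The direction of the calls differed among the kinds as well. Higher probes made up 54.4% of the called FL-cDNA locus probes but 44.2% of the called ENDS models and 42.4% of the called CDS models. Of the E5 probes, of which a locus has up to 9, 1274 were higher and 827 lower in panicle, that is 9.85% and 6.39%. The common probes, with 1 per locus, had 11.2% higher and 10.1% lower, and the probes specific to a variant 3.51% higher and 5.27% lower. The common probes of the 2256 loci that also have E5 probes were higher in 240 and lower in 170 cases, and those of the 18129 other loci in 2048 and 1897 cases. No test of these splits was made, because probes of 1 locus are not independent. At 103 loci 5 or more E5 probes were higher, and at 69 loci 5 or more were lower.

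**Figure D3:**
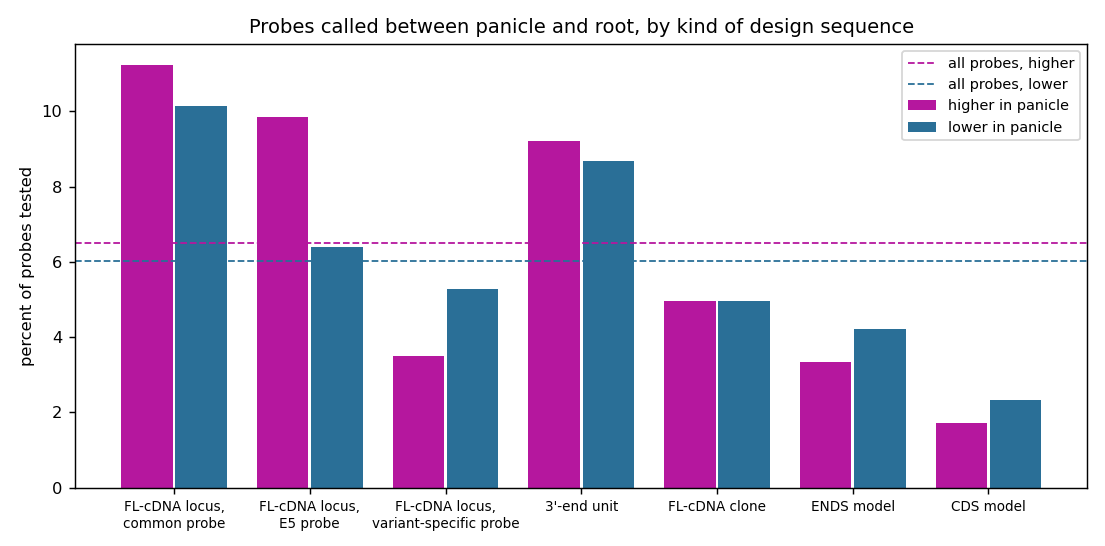
Percent of the probes tested that were called higher (pink) or lower (blue) in panicle than in root, by kind of design sequence, with dashed lines at the shares over all probes (6.49% and 6.03%). Common probes of FL-cDNA loci and 3'-end units lie above both lines, and the ENDS and CDS models lie below both.

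Among the predicted CDS models, the 2 largest changes in each direction showed no overlap between panicle and root, which largely follows from their choice by size. The CDS model 9631.m05846_CDS had levels of 623974 and 372973 in panicle, both saturated, and of 475 and 538 in root, at least 369-fold higher in panicle on normalized channel values. Its difference through the shoot, which is what was tested, was smaller, 5.21 ± 0.46 (adjusted p = 0.00108), with shoot levels of 31302 and 7778 beside panicle and of 771 and 494 beside root. 9629.m04541_CDS had 13284 and 17784 in panicle and 165 and 254 in root, a difference of 5.61 ± 0.43. In the other direction 9629.m00999_CDS had 130 and 431 in panicle and 69660 and 42878 in root, a difference of -5.00 ± 0.16, and 9632.m01939_CDS had 306 and 504 in panicle and 40408 and 50291 in root, a difference of -4.64 ± 0.18. These 4 predicted genes were thus bright in only 1 of the 2 tissues, and their callus levels, from 189 to 935, were low. Of the ENDS models, 9629.m05520_END was also among the 2 largest falls, with 1839 and 2378 in panicle and 135422 and 209493 in root.

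Among the single full-length cDNA clones, which are bright in all tissues at the median, 51 of 1026 were higher and 51 lower in panicle, which is 4.97% each. This share is not comparable with that of the other probes, since a clone was called by the larger p of the 2 array sets. Clone 001-038-E11 had 222888 and 311753 in panicle and 2165 and 3854 in root, a difference of 6.18 ± 0.59, and clone 001-031-H01 had 296876 and 345162 in panicle and 4854 and 9148 in root, a difference of 5.62 ± 0.66. Each was saturated in panicle replicate 2, and the shoot levels, from 145481 to 518996, were also far above root. A clone counted as saturated in a replicate when its spot was saturated on at least 1 of the 2 array sets. Of the falls, clone 001-105-E09 had 20192 and 30340 in panicle and 631726 and 260849 in root, the root spots saturated on both replicates, which made panicle at least 20.1-fold lower on normalized channel values, with a difference of -4.41 ± 0.56 through the shoot (adjusted p = 0.00671). Clone J023083K01 had 17752 and 19576 in panicle and 221917 and 265484 in root, a difference of -3.92 ± 0.35, and its shoot levels, from 271094 to 335366, were above its root levels, of which 1 was saturated. The largest changes of the 3'-end units not yet named included R09-E3TU-00535F, with 532006 and 236641 in panicle, both saturated, and 709 and 561 in root, at least 272-fold higher in panicle on normalized channel values. Its difference through the shoot was 6.05 ± 0.50 (adjusted p = 0.00129), with shoot levels of 42981 and 8413 beside panicle and of 2591 and 1997 beside root.

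Some probes were detected in 1 of the 2 tissues only. In 899 probes both panicle spots and neither root spot were well above background, and in 1008 probes both root spots and neither panicle spot were. In 68170 probes both tissues were detected on all arrays, and in 4113 neither was. By the weaker criterion of a signal that is merely significant, 268 were found in panicle only and 293 in root only. Most of these probes were dim, with a median level of 261 in panicle for the first group and of 182 in root for the second. At levels of 1000 or more in both replicates there were 113 in panicle only and 123 in root only.

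The 5 brightest of each group had levels of at least 43052 in both replicates of 1 tissue and were not well above background in the other. For these, a bound was taken from channel values after normexp (offset 50), loess and Aquantile normalization, with the dim tissue set to the lowest signal well above background or its own value, whichever was higher. The offset raises dim values, so the size of the bounds depends on it. In several probes, among them R03-00398F_C, the dim tissue's own value set the bound. R11-00399F_C on chromosome 11 had 620690 and 385586 in panicle, both saturated, and 36.1 and 114 in root, at least 708-fold higher in panicle, with a difference of 3.28 ± 0.70 through the shoot (adjusted p = 0.0279). R03-00398F_C had 390805 and 383784 in panicle and 35.8 and 118 in root, at least 513-fold higher, with a difference of 3.17 ± 0.55 through the shoot (adjusted p = 0.0131). E5_12375 had 118062 and 140901 in panicle and 43.2 and 48.3 in root, at least 195.6-fold higher, with a difference of 2.61 ± 0.42 through the shoot (adjusted p = 0.0145). R01-00341R_C was at least 146-fold higher, with a difference of 4.27 ± 1.02 through the shoot (adjusted p = 0.0484). Callus differed among these 4, since R03-00398F_C and R01-00341R_C had mean callus levels of 23133 and 6849, while the other pair was near background in callus. In root, R07-00011F_C on chromosome 7 had 72.1 and 198 in panicle and 116757 and 166939 in root, at least 222-fold lower in panicle, although its difference through the shoot of -2.37 ± 1.08 did not pass (adjusted p = 0.251). E5_08676, 9630.m03565_END, R10-00016R_C and R04-00035R_C were at least 91.9-fold, 104-fold, 76.5-fold and 82.4-fold lower in panicle, with differences through the shoot from -5.21 to -2.88 and their adjusted p between 0.000623 and 0.0317.

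The difference of these probes through the shoot was smaller than their bound, and their shoot signal was not the same beside panicle and beside root. The probe E5_05740 was the brightest found in panicle only, with 633826 and 410811 in panicle, both saturated, and 38 and 137 in root, at least 744-fold higher in panicle, yet its difference through the shoot was 0.51 ± 0.90 (adjusted p = 0.841). Its shoot levels were 504119 and 171403 beside panicle, and 79.5 and 45.7 beside root, although the labels name the same shoot extracts. On the arrays with callus and with IR64 its shoot levels were from 34.5 to 93.4. The shoot was thus bright only where panicle was on the same array.

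The same was seen in the other bright probes found in 1 tissue only. Of the 30 probes found in panicle only with a level of 10000 or more in both replicates, all 30 had a brighter shoot beside panicle than beside root without overlap, with median shoot levels of 3707 on panicle arrays and 57.4 on root arrays. Of the 29 such probes found in root only, all 29 had a brighter shoot beside root, with medians of 60.2 on panicle arrays and 1980 on root arrays. The shoot signal was a median of 8.6% of the panicle signal in the first group and of 6.91% of the root signal in the second. In the first group the median difference was 3.31 through the shoot and 9.25 between the tissue channels directly, and in the second -4.89 through the shoot and -8.64 directly. Without a minimum level, the shoot was brighter beside the tissue of detection without overlap in 489 of the 899 probes found in panicle only and in 523 of the 1008 found in root only. The share of all probes without such overlap was not counted, so these counts have no background beside them. By mean log2 shoot level alone, 52.3% of the 62782 probes whose tissues differed less than 2-fold were higher beside panicle. The groups were chosen on the tissue channels only. Why the shoot channel moved with its partner was not tested.

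At the median, the shoot channel moved in the same direction as the tissue in the probes whose tissue channels differed 2-fold or more. The shoot level on panicle arrays over that on root arrays correlated with the panicle level over the root level with r = 0.670 across 81033 probes, which lie on the same arrays and share their scaling. In the 224 probes that were at least 64-fold higher in panicle than in root on the tissue channels, the median shoot difference was 3.46, and the difference through the shoot was 4.01 where the tissue channels gave 7.30. In the 254 probes at least 64-fold lower, the median shoot difference was -2.77, and the difference through the shoot was -4.31 where the tissue channels gave -7.05. Where the tissues differed less than 2-fold, the median shoot difference was 0.02. At the median, the difference through the shoot was thus smaller than that between the tissue channels in the probes that changed most on those channels. Binning on the tissue channels by itself tends to make the other value smaller, and no bins were cut on the difference through the shoot. Compared directly on the scaled tissue channels, without the shoot, 10668 probes were higher and 9106 lower in panicle, against 5387 and 5004 through the shoot, and 5150 of the 5387 and 4427 of the 5004 were among them.

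**Figure D4:**
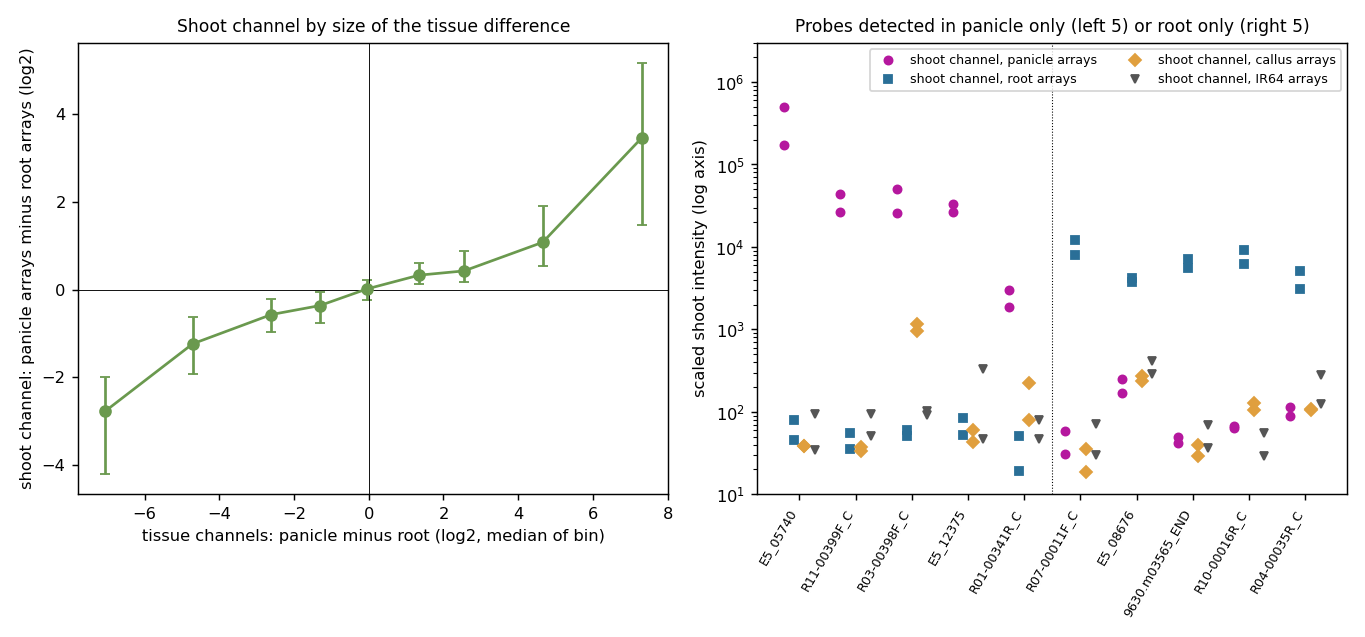
Left, median shoot signal on panicle arrays minus that on root arrays (log2, bars from the lower to the upper quartile) for probes binned by the difference of panicle minus root between the tissue channels (log2). Right, scaled shoot intensity (log axis) of the 5 brightest probes found in panicle only and the 5 found in root only, on the arrays with panicle, root, callus and IR64, 2 replicates each; the shoot is brightest beside the tissue in which the probe was found.

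The same shoot extract gave a spread of its own between the arrays. In array set 1 the shoot level on the panicle array differed from that on the root array with an SD of 0.85 (log2) in replicate 1 and 0.65 in replicate 2, and in set 2 with 0.72 in both. Between replicates 1 and 2 this shoot difference correlated with r = 0.211 in set 1 and r = 0.496 in set 2 across all probes. A 2-fold or larger shoot difference in both replicates and in the same direction was found for 2.06% of the probes in set 1 and 3.5% in set 2. For the difference of panicle minus root the same was found for 11.9% in set 1 and 13.3% in set 2.

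The probes of a locus were compared with each other. Of the 5237 FL-cDNA loci with 2 or more probes tested, 1519 had a called probe, and at 896 of these (59.0%) only 1 probe was called. The other 623 had 2 or more called probes, of which 336 had only higher, 277 only lower and 10 both. With only calls of at least 2-fold, 6 loci had both. The 3 loci with the widest span between called probes are described here, which were chosen after their values were seen. At R04-CHRv2-00611R on chromosome 4 the common probe R04-00611R_C had 3941 and 4613 in panicle and 11567 and 17021 in root, a difference of -1.67 ± 0.26 (adjusted p = 0.00861). The 3 E5 probes of the locus went the other way. E5_11066 had 6159 and 6901 in panicle and 562 and 573 in root, a difference of 3.38 ± 0.19, and E5_12653 and E5_11879 had differences of 3.27 ± 0.16 and 3.42 ± 0.16.

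At R04-CHRv2-00519R on the same chromosome the common probe was again lower in panicle. R04-00519R_C had 28734 and 16030 in panicle and 81497 and 114680 in root, a difference of -2.30 ± 0.18, while 4 of the 7 E5 probes were higher, with differences from 0.82 to 1.30. At R01-CHRv2-00295R, on chromosome 1, the common probe R01-00295R_C was higher, with 2304 and 2733 in panicle and 242 and 327 in root, a difference of 2.84 ± 0.28, and so were 3 E5 probes with 1.33, 1.67 and 2.63. The E5 probe E5_08465 of that locus was lower, with 4267 and 5313 in panicle and 9850 and 9608 in root, a difference of -0.69 ± 0.16 (adjusted p = 0.0462), and 5 probes were not called. That lower call was lost when the ratios were centred on the array median (adjusted p = 0.0668), on only the panicle and root arrays (0.0954), without IR64 (0.0691) and whenever a replicate was left out (0.1225 to 0.41), and without it the locus has calls in 1 direction only. At each of the 3 loci the 2 replicates had the same sign in the probes called, but so had 98.8% of all called probes, so this does not set the loci apart. Whether different transcripts of a locus or another locus with a similar sequence gave these signals was not tested.

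Neighboring loci were compared by the numbers in their identifiers, which run along each strand of a chromosome. Of 20406 FL-cDNA loci tested, 11.2% had a probe at least 2-fold higher in panicle and none lower, and 9.56% the reverse. Where the next locus on the strand had also been tested, it was higher in panicle for 14.7% of 2255 higher loci and for 10.6% of 1939 lower loci, and it was lower in panicle for 8.2% of the higher loci and for 12.8% of the lower loci. The runs of 3 or more such neighbors numbered 45 for higher and 32 for lower loci. Loci with similar sequences can lie side by side, and signals shared between them were not tested. Across the 12 chromosomes the share of higher loci ranged from 9.07% to 12.3% and that of lower loci from 8.98% to 10.4%.

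The longest run was of 6 loci on the forward strand of chromosome 8, R08-CHRv2-00158F to R08-CHRv2-00163F, which were all lower in panicle. At its first locus R08-00158F_C had 17406 and 18739 in panicle and 49319 and 60229 in root, a difference of -1.11 ± 0.22. At its last locus R08-00163F_C was not well above background in panicle, with 66.6 and 57.1 in panicle and 22177 and 24855 in root, and was at least 40.7-fold lower in panicle on normalized channel values. Between them E5_06841, E5_06750, R08-00161F_C and E5_08928 had differences of -1.73, -2.51, -4.31 and -2.21. The run rests on 1 called probe at 4 of the 6 loci. At R08-CHRv2-00159F this was 1 of 4 probes tested and at R08-CHRv2-00160F 1 of 2, while the first and last locus had 1 probe each.

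Runs of 5 lower loci lay on the reverse strand of chromosome 3 (R03-CHRv2-00208R to 00212R) and on the forward strand of chromosome 7 (R07-CHRv2-00790F to 00794F). In the first, R03-00210R_C had 622 and 737 in panicle and 71526 and 126187 in root, and at 00212R all 10 probes were called at least 2-fold lower. In the second, R07-00793F_C had 1622 and 836 in panicle and 72752 and 112602 in root, with replicate 1 of panicle left out of the fit as an outlier. Of the runs of higher loci, the longest were of 5 on chromosome 5 (R05-CHRv2-00761F to 00765F) and of 5 on chromosome 10 (R10-CHRv2-00387R to 00391R), followed by 1 of 4 on chromosome 4 (R04-CHRv2-00099F to 00102F), the first of several of that length. In the run on chromosome 5, R05-00763F_C had 46799 and 54962 in panicle and 3007 and 3721 in root, a difference of 3.57 ± 0.24. In the run on chromosome 10, R10-00389R_C had 43186 and 55676 in panicle and 2779 and 3224 in root, and R10-00391R_S2 had 18062 and 24865 in panicle and 2057 and 3797 in root. The last of these was brightest in shoot, from 211781 to 352645, so the panicle rise there was a rise between 2 tissues that both lay below shoot. The same was seen in the run on chromosome 4, where R04-00101F_S2 had 50213 and 61069 in panicle, 7034 and 7994 in root and from 256267 to 571861 in shoot.

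**Figure D5:**
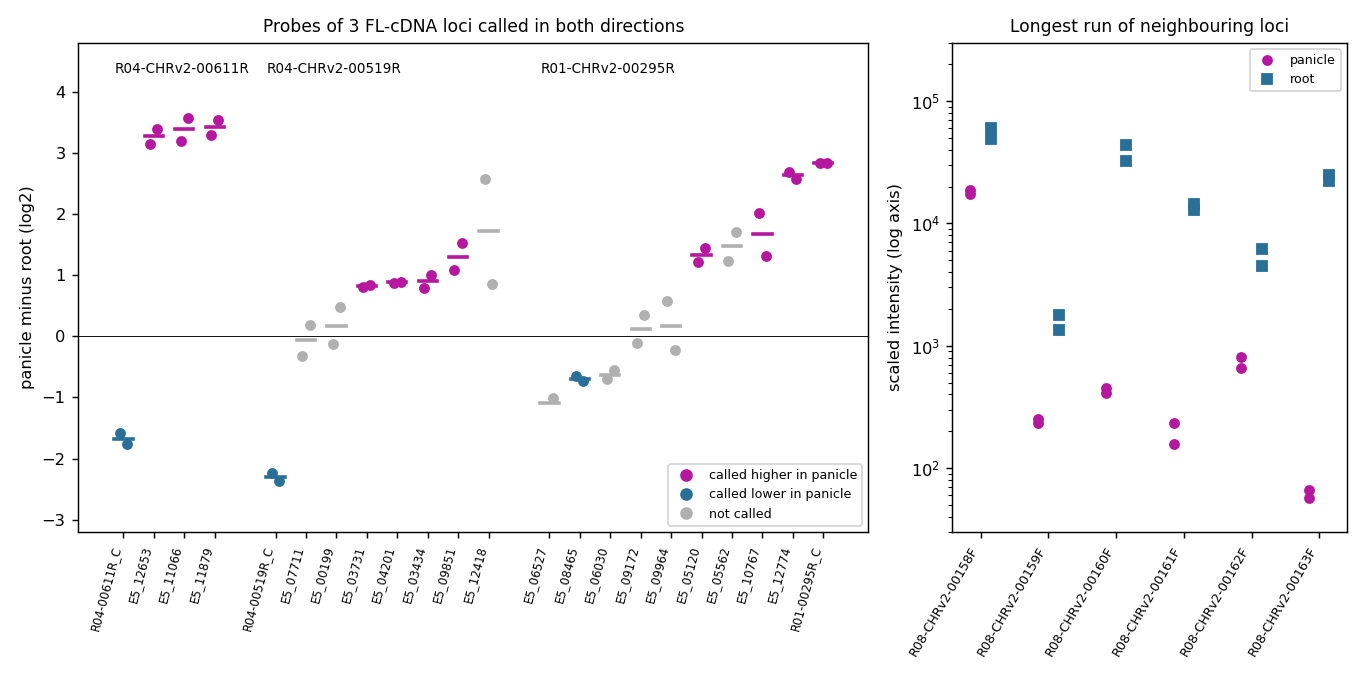
Left, difference of panicle minus root (log2) for every probe of the 3 FL-cDNA loci with the widest span between called probes, with points for the 2 replicates and lines for the fitted value; pink probes were called higher in panicle, blue lower and gray not. Right, scaled intensity (log axis) in panicle (circles) and root (squares), 2 replicates each, of the probe with the largest called change at each of the 6 loci of the longest run. Panicle is below root at every locus, which follows from how the run was defined.

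The probes called between panicle and root had middle median levels in shoot, callus and IR64 shoot. The 5387 probes higher in panicle had median levels of 5885 in panicle, 1125 in root, 3013 in shoot, 1687 in callus and 2313 in IR64 shoot. The 5004 probes lower in panicle had median levels of 1413 in panicle, 6650 in root, 2075 in shoot, 2083 in callus and 1616 in IR64 shoot. The panicle and root medians follow from the choice of the probes, and those of callus and IR64 do not. At the level of loci, 960 of the 20419 FL-cDNA loci exceeded a level of 1000 in both panicle replicates and in neither root replicate by their brightest probe, 710 exceeded it in root only, and 14597 exceeded it in both tissues.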

How the data were processed

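The deposited intensities are the green and red processed signals that the authors obtained with Agilent Feature Extraction, which subtracts the background with spatial detrending and balances the dyes of an array with linear and LOWESS scaling. The file headers name version 8.1 of the software and the submitters' processing notes 7.5. The deposited log10 ratios are those of the same software, tissue over shoot. For the fits, the deposited intensities were turned into log2 ratios of tissue over shoot, without scaling between arrays, and outlier spots were left out. The deposited flags for detection, saturation and outliers were used as given.

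For each array set a limma model (limma 3.58.1 in R 4.3.3) was fitted over its 8 arrays, with 1 coefficient each for panicle, root, callus and IR64 shoot, no dye term and empirical Bayes moderation, and panicle minus root was taken as the contrast. The 4 samples share 1 estimate of the spread, since each has 2 arrays per set. The labels name the same shoot extract for both callus replicates, so the callus spread holds no difference between shoot extracts. How far this changed the calls was not tested. P-values were adjusted by the Benjamini-Hochberg method over both sets together. Probes on both sets received the mean difference, the larger standard error and the larger p. The script was tested on simulated data. The probes named are the 10 largest rises and falls among called probes of the same sign in both replicates with signals well above background in both channels of all panicle and root arrays, 1 per locus, the 2 largest of each direction within each kind of design sequence, the 5 brightest probes detected in 1 tissue only, and the 3 longest runs of each direction. The members and lists were chosen with earlier results of these data known. Replicate numbers are shared with the dye orientation and the shoot extract of panicle and root according to the labels, and the deviations of same-numbered ratios correlated with r = 0.402 in set 1 and 0.482 in set 2, so a replicate block was fitted as an alternative. For arrays, the number of hybridizations, 2 per tissue and array set, limits the precision. The planned lists of marker genes were not run, because no table pairs the identifiers with gene names.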

Additional observations from a re-analysis of the deposited data

Results flagged for a closer look

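Signal was found in control spots, which took no part in the comparison. Each array carried 98 spots each of 4 control sequences named CAB, COR, SIG and C1 in the files, which do not describe them. The CAB spots had median levels of 4589 and 6189 in panicle and 1158 and 1436 in root on array set 1, and of 5484 and 5962 in panicle and 1456 and 1584 in root on set 2. Their median panicle minus root difference through the shoot was 1.60 in replicate 1 and 1.68 in replicate 2 on set 1 and 1.79 and 1.69 on set 2, with means of 1.64 and 1.74. The CAB spots were brightest in shoot, from 24544 to 47177. The SIG spots differed by -0.12 to 0.06, and the COR spots by 0.18 to 0.31. The C1 spots and the 314 negative control spots of an array were mostly not well above background. No test was made, since the spots of an array repeat the same sequence on the same 2 samples.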

How the results depend on the processing

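Without the shoot as an intermediate, 10668 probes were higher and 9106 lower in panicle. Leaving out 1 replicate gave from 272 to 3581 higher and from 256 to 2997 lower probes, with the low ends from fits that kept 1 replicate of both tissues and took the spread from callus and IR64. The fit with the replicate block gave 6834 higher and 6652 lower probes and changed no call among the 92 probes named or shown, of which 82 were called. The other fits gave from 4104 to 7426 higher and from 3594 to 7037 lower probes, and no call among the 92 probes turned its direction. In the fit on only the panicle and root arrays 12 of the 82 lost the call, and when root replicate 1 was left out 19 did. With replicate 1 of both tissues left out 57 lost it. The sign turned only in 5 probes that were not called. When replicates were left out, E5_00199 ranged from -0.41 to 0.76, E5_05740 from -0.82 to 1.83, E5_07711 from -0.32 to 0.19, E5_09172 from -0.10 to 0.35 and E5_09964 from -0.36 to 0.71. Without the shoot, E5_07711 had 0.0163 and E5_09964 had -0.0934. With only probes well above background the correlation of replicates was 0.798 in set 1 and 0.921 in set 2. By the significance flag alone 268 probes were detected in panicle only and 293 in root only, and 6 loci had called probes in both directions when only 2-fold changes counted. Probes near background have ratios that rest on surrogate values, and saturated ones are limits.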
